A study of Mus musculus with 15 samples.

Results

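The nuclear oxidative phosphorylation genes were taken as the mouse protein-coding genes on chromosomes 1 to 19 and X whose symbol starts with Nduf, Uqcr, Atp5, Cox4i, Cox5, Cox6, Cox7 or Cox8, together with Sdha, Sdhb, Sdhc, Sdhd and Cyc1. This rule used names and no measured value, and it found 91 of 22208 protein-coding genes. It takes in 75 widely expressed subunits of the 5 complexes, 8 isoforms known for restricted tissues, 4 complex I assembly factors (Ndufaf1 to Ndufaf4) and 4 related genes (Atp5s, Atp5sl, Cox7a2l and Atp5l-ps1, the last named as a pseudogene but classed as protein-coding by the annotation).

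Oxidative phosphorylation makes most of the ATP of a resting cell. Electrons from NADH enter at complex I, the NADH dehydrogenase, and those from succinate at complex II, the succinate dehydrogenase. They pass through complex III, the cytochrome bc1 complex, and cytochrome c to complex IV, cytochrome c oxidase, which reduces oxygen. Complexes I, III and IV pump protons across the inner mitochondrial membrane, and complex V, the ATP synthase, lets them return while it makes ATP. Apart from a few subunits of mitochondrial DNA, the genes lie scattered over the nuclear chromosomes, and their products must be made in matched amounts. Many are regarded as housekeeping genes with CpG-rich promoters, and NRF1, GABP, YY1 and ERR proteins are known as activators of the group.

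The study profiled primary CD69-CD4+CD8+ thymocytes, immature T cells that carry both coreceptors and lack the activation marker CD69, from wild type C57BL/6 thymus. ChIP-seq peak lists of these cells were used: 2 for H3K27ac, an acetyl mark on histones at promoters and enhancers in use, 2 for Rad21, a subunit of the cohesin ring that extrudes chromatin loops, and 1 for CTCF, the DNA-binding protein at which cohesin is known to stop. No other genotype or treatment enters the values given here; the 8 Hi-C samples, which include CTCF knockouts and CTCF with Rad21 double knockouts made with CD4 Cre, and 2 input samples, were not analysed here. The labels give no ages and do not tie replicates to animals, so differences between replicates may be technical. The lists hold 38700 and 24765 H3K27ac peaks, 38430 and 48462 Rad21 peaks and 35345 CTCF peaks, with no read counts, so the depth is unknown. All 13 markers of CD4+CD8+ thymocytes had promoter H3K27ac in both replicates, as did 2 of 5 B cell genes, 2 of 4 erythroid genes, none of 5 myeloid genes and none of 4 thymic epithelial genes. What other cells in the sample added to the promoter marks of the oxidative phosphorylation genes was not tested.

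As promoter of a gene served the 2000 bp up- and downstream of each of its transcription start sites (TSSs). It was called active when a region with a peak of both H3K27ac replicates overlapped it, and its Rad21 was called shared when the same held for both Rad21 replicates. Each peak carries a fold over local background from the authors' caller, used here only to describe and rank peaks within a list. Distances run from the summit of the peak with the highest fold to the nearest TSS.

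The following stretches of promoter, on build NCBIM37 (mm9) and in the direction of transcription, are shown because they hold an exact NRF1 match (GCGCATGCG on either strand) or GABP match (CCGGAAGT on either strand) before the start of a gene that is among the highest for Rad21 or CTCF. Capitals mark the match, which spans more than the searched letters where both strands match in overlapping bases. All 3 lie outside the annotated exons and introns of any gene. Atp5g2 encodes a copy of the proton-carrying c subunit of the ATP synthase rotor, Cox6a1 a cytochrome oxidase subunit, and Uqcr11 a small subunit of complex III.
Atp5g2, NRF1, chr15:102501491-102501540, minus strand: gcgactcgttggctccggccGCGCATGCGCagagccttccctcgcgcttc
Cox6a1, NRF1, chr5:115799100-115799149, minus strand: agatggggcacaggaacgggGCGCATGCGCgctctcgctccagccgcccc
Uqcr11, GABP, chr10:79869605-79869652, minus strand: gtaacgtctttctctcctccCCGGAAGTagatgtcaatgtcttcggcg

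The next stretches hold the best match to the CTCF core consensus within 50 bp of the promoter CTCF summit, with at most 2 mismatches, in the orientation of the core. They are shown for genes among those with the highest CTCF fold that have such a match, and for Ndufaf4, an assembly factor without shared H3K27ac. Capitals mark the core.
Ndufa4l2, 1 mismatch, chr10:126950066-126950094, plus strand, outside annotated genes: cggctcggCCTCTAGAGGGCGccggcacc
Ndufb7, 2 mismatches, chr8:86090555-86090583, plus strand, reaching the untranslated first exon: cctccacaCCGCCAGGGGGTGtcagcgag
Ndufb10, 2 mismatches, chr17:24861434-24861462, minus strand, outside annotated genes: gctggggaCCACAAGGGGGTGctcgagag
Cox6a1, 0 mismatches, chr5:115797782-115797810, minus strand, in an intron of Cox6a1: ggctctgcCCACTAGGTGGCAgtagcacc
Ndufaf4, 0 mismatches, chr4:24825166-24825194, plus strand, outside annotated genes: cctcccggCCACCAGGGGGCGacgagcgc
No match of that quality lay near the summits of Atp5g2, Ndufab1 and Ndufaf3, which are also among the highest for CTCF, although Atp5g2 had the highest CTCF fold of all members. Of all 28 active members with a promoter CTCF peak, 17 (60.7%) held a core match, beside 58.9% of other active genes with such a peak.

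Nearly all oxidative phosphorylation genes carried promoter H3K27ac in these thymocytes. A shared region lay at 81 of 91 promoters (89.0%), while 40.8% of the 22117 other protein-coding genes had one. Replicate 1 alone marked 84 members and replicate 2 alone 81, beside 43.8% and 42.2% of other genes. All 37 complex I subunits, all 4 of complex II, all 9 of complex III and the 10 widely expressed subunits of complex IV were active, and so were 14 of 15 subunits of complex V, 3 of 4 assembly factors and 3 of 4 related genes. When the replicates of each target were held to equal numbers of top peaks by fold, 49 members (53.8%) and 28.3% of other genes kept a shared region. Both H3K27ac lists hold peaks with q above 0.05, down to a -log10 q of 0.188 in replicate 1 and 0.00455 in replicate 2. For most active members the promoter peak with the highest fold had a q above 0.05 in at least 1 of the 2 lists. Some had such peaks in both, for example Cyc1 (-log10 q of 0.413 and 0.801) and Cox5b (0.758 and 0.355). How often this held for other active genes was not determined. No q limit was applied to H3K27ac, so the share under such a limit was not tested.

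The members without shared H3K27ac were 10: 7 restricted isoforms, Atp5g1, Ndufaf4 and Atp5l-ps1. Atp5g1, another gene for the ATP synthase c subunit, had an H3K27ac peak in replicate 1 with a fold of 4.92 and none in replicate 2. Ndufaf4 likewise had a peak of fold 2.20 in replicate 1 alone, yet its promoter held Rad21 at folds of 8.37 and 11.1 and CTCF at 14.5. Cox4i2 was the third with a replicate 1 peak, at a fold of 2.34, and the remaining 7 had no H3K27ac peak in either list.

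**Figure D1:**
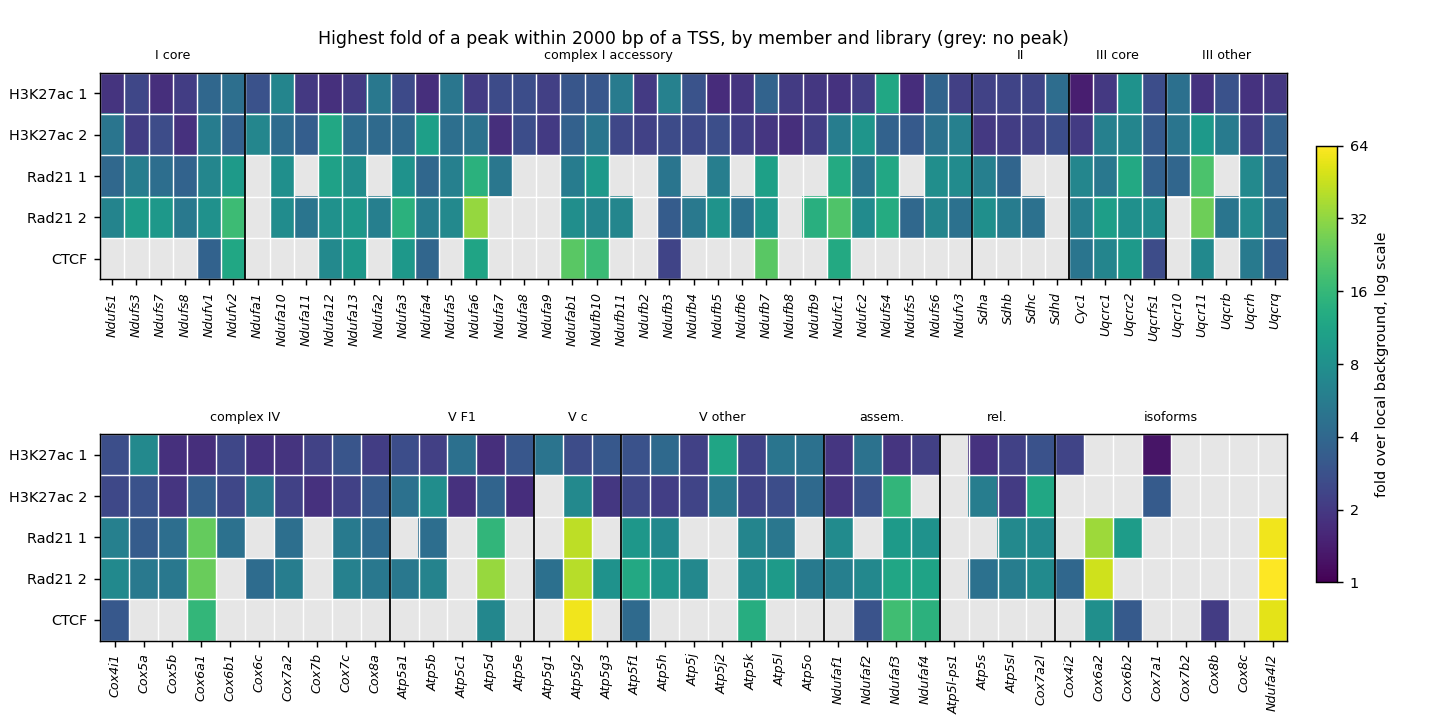
The highest fold of a peak in the promoter window for 90 of the 91 members (columns, grouped by complex and role; assem., assembly factors; rel., related genes; isoforms, restricted isoforms) in each of the 5 peak lists (rows), on a log colour scale, with grey where no peak lies. H3K27ac is filled for nearly every widely expressed subunit, Rad21 is patchy in every complex, CTCF is patchy in complexes I, III, IV and V and grey throughout complex II, and the restricted isoforms at the lower right are mostly grey for H3K27ac.

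The restricted isoforms and their widely expressed partners were marked in opposite ways. Cox4i2, Cox6a2, Cox6b2, Cox7a1, Cox7b2, Cox8b, Cox8c and Ndufa4l2 are known from lung, heart, skeletal muscle, brown fat, testis or hypoxic cells, and 1 of these 8 was active. That gene was Cox7a1, the heart and muscle form of subunit VIIa, with an H3K27ac fold of 1.27 in replicate 1, the lowest of all active members, and 3.3 in replicate 2. All 7 partners were active: Cox4i1, Cox6a1, Cox6b1, Cox7a2, Cox7b, Cox8a and Ndufa4. Cox6a1, for example, had H3K27ac folds of 1.75 and 3.55 where its muscle counterpart Cox6a2 had no peak. Ndufa4, a subunit first placed in complex I and now also described with complex IV, had folds of 1.75 and 10.5, and its counterpart Ndufa4l2 had none.

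Among active members, cohesin was about as frequent at the promoter as among other active genes. Shared Rad21 lay at 49 of 81 active members (60.5%), beside 59.2% of the 9018 other active genes. Replicate 1 had a peak at 54 (66.7%, beside 68.2%) and replicate 2 at 67 (82.7%, beside 82.4%). The difference in the shared share was 1.25 percentage points, and it was -1.52 with replicate 1 alone, -1.89 when the overlap had to cover 50% of the shorter peak and -1.58 with equal numbers of top peaks, so it had no stable sign. CTCF lay at 28 active members (34.6%), beside 39.5% of other active genes, and with a -log10 q of at least 5 at 19 (23.5%) beside 23.0%. Of the 28 CTCF peaks, 6 had a q above 0.05 (21.4%), beside 21.5% for other active genes.

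Sorted by both proteins, 25 active members (30.9%) had shared Rad21 and CTCF in the window, beside 32.5% of other active genes. A further 24 (29.6%) had shared Rad21 without CTCF, beside 26.8%. CTCF without shared Rad21 occurred at 3 (3.70%), beside 7%, namely Ndufaf2, Cyc1 and Cox4i1. The CTCF peaks of Ndufaf2 and Cox4i1 had a q above 0.05 (-log10 q of 0 and 0.479). Neither was found at 29 (35.8%), beside 33.8%. Where a shared Rad21 region itself was considered, 25 members had a region free of CTCF (30.9%, beside 37.5%) and 26 had a region that overlapped a CTCF peak (32.1%, beside 30.5%).

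**Figure D2:**
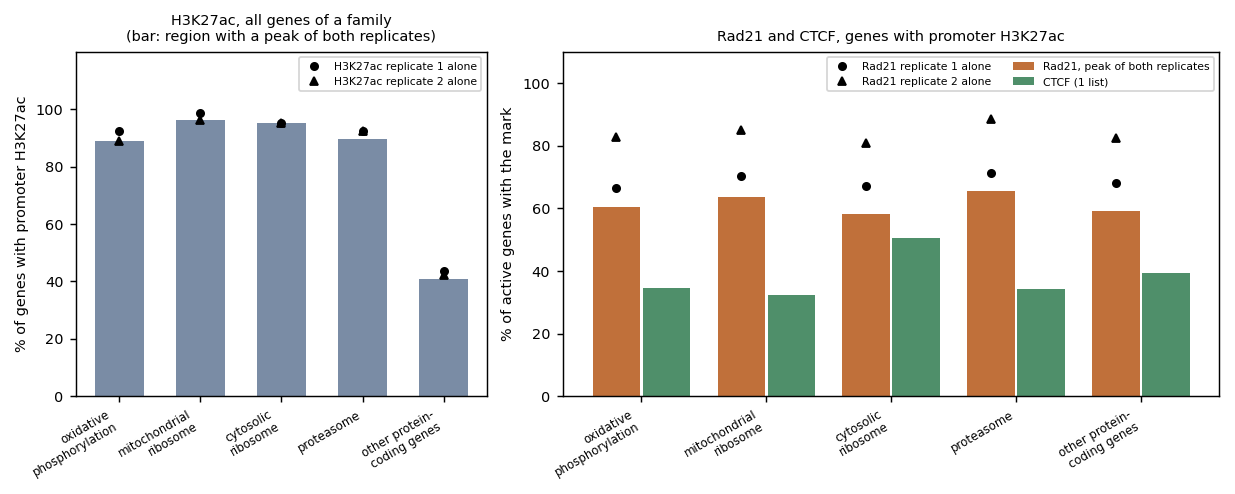
Left, the percentage of genes with a promoter H3K27ac region of both replicates (bars) and with a peak in each replicate (circles and triangles); right, the percentage of genes with promoter H3K27ac that carry Rad21 (orange bars, both replicates; symbols, each replicate) or CTCF (green bars), in 4 gene families and all other protein-coding genes. The families differ from other genes in H3K27ac, with 89.0% against 40.8% for oxidative phosphorylation, and much less in Rad21, with 60.5% against 59.2%.

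In complex I, shared Rad21 lay at 25 of 37 promoters (67.6%, beside 59.2% of other active genes) and CTCF at 13 (35.1%, beside 39.5%). All 7 core subunits, which hold the flavin and iron-sulfur clusters or the quinone site and do the electron transfer, had shared Rad21. A group of 7 genes cannot show whether this share differs from the rest. Ndufv2, an iron-sulfur subunit of the NADH module, had Rad21 folds of 9.70 and 17.2 with CTCF at 11.8. Ndufv1, which binds NADH and flavin, came out lower, at 6.69 and 8.20 with CTCF at 3.68.

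Ndufs1, Ndufs3, Ndufs7 and Ndufs8 had Rad21 and no CTCF peak, and their folds were at most 5.82 in replicate 1. Ndufs1, the largest iron-sulfur subunit, had 4.05 and 6.56. Ndufs3 had 5.82 and 10.0. Ndufs7 had 4.48 and 9.18, and Ndufs8 had 3.73 and 5.35. In replicate 1 all 4 were below Ndufv1 and Ndufv2. Replicate 2 did not order them in this way, since Ndufs3 and Ndufs7 were above Ndufv1.

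The 30 accessory subunits of complex I surround the core and are needed for its assembly and stability. They had shared Rad21 at 18 promoters (60%, beside 59.2% of other active genes) and CTCF at 10 (33.3%, beside 39.5%). Ndufa6 had Rad21 folds of 14.2 and 33.4 and Ndufc1 of 12.8 and 20.5, both with the CTCF summit beside the Rad21 summits. Ndufs4, an accessory subunit known from Leigh syndrome, had the highest H3K27ac fold of all active members in replicate 1, at 11.8, and Rad21 folds of 12.1 and 12.9 at the TSS without CTCF. At the other end, Ndufa1, Ndufa8, Ndufa9, Ndufb2 and Ndufb8 had no Rad21 peak in either replicate and no CTCF.

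Complex II was small and free of CTCF in this window. All 4 genes were active, and 0 of 4 had a CTCF peak, beside 39.5% of other active genes. Sdha, the flavoprotein subunit, had Rad21 folds of 6.04 and 7.88, and Sdhb, the iron-sulfur subunit, of 3.91 and 5.73. Of the membrane anchors, Sdhc had a Rad21 peak in replicate 2 alone, with a fold of 4.68, and Sdhd had none. A group of 4 genes cannot show whether this share differs from the rest.

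In complex III, CTCF lay at 7 of 9 promoters (77.8%, beside 39.5% of other active genes) and shared Rad21 at 6 (66.7%, beside 59.2%). No promoter had shared Rad21 without CTCF, beside 26.8% of other active genes. A group of 9 genes cannot show whether these shares differ from the rest. Uqcrc2, a core protein of the complex, had Rad21 folds of 12.3 and 8.02 and a CTCF fold of 9.48. Uqcrc1, the other core protein, had 5.33 and 10.4 with CTCF at 6.59, and Uqcrfs1, the Rieske iron-sulfur protein, had 3.62 and 7.61 with CTCF at 2.61. Cyc1, cytochrome c1, had Rad21 peaks of 6.69 and 6.02, but replicate 1 had its summit 1124 bp and replicate 2 its summit 37 bp inside the gene, so no region was shared. Its CTCF peak, with a fold of 5.07, lay 1107 bp downstream of the TSS, where the core match is in a coding exon of Cyc1. Uqcr11 had the highest Rad21 folds of the complex, 19.6 and 25.7. The CTCF peaks of Uqcrfs1 and Uqcrq were among the 6 with q above 0.05.

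Complex IV had shared Rad21 at 5 of its 10 widely expressed subunits (50%, beside 59.2% of other active genes) and CTCF at 2 (20%, beside 39.5%). Cox5a, which helps hold the catalytic core, had Rad21 folds of 3.37, the lowest of all active members in replicate 1, and 5.38. Cox4i1 and Cox5b had a Rad21 peak in each replicate at different places. In Cox4i1 the replicate 1 summit was 2013 bp upstream and the replicate 2 summit 13 bp downstream of the TSS. Next to the replicate 1 summit was a CTCF summit 1987 bp upstream, with a fold of 3.14 and a q above 0.05. Cox5b had folds of 4.46 and 5.27 with summits 150 bp upstream and 157 bp downstream. Cox6a1 stood apart from the other 9, with Rad21 at 24.0 and 24.6 and CTCF at 15.7, all about 1.2 kb inside the gene.

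In complex V, 7 of 14 active subunits had shared Rad21 (50%, beside 59.2% of other active genes) and 4 had CTCF (28.6%, beside 39.5%). Of the F1 head, which holds the catalytic sites, Atp5b had Rad21 folds of 4.46 and 6.44 and Atp5d of 15.5 and 34.0 with CTCF at 6.84. Atp5a1 had a peak in replicate 2 alone, at 5.27, while Atp5c1 and Atp5e had none. The rotor genes differed most: Atp5g2 had Rad21 at 42.4 and 40.7, Atp5g3 had a replicate 2 peak of 8.27 alone, and Atp5g1 had a replicate 2 peak of 4.68 and no shared H3K27ac. These 3 genes encode the same mature c subunit and differ in their import sequences.

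The 8 members with the best rank of Rad21 fold in both replicates were Ndufa4l2, Atp5g2, Cox6a2, Uqcr11, Atp5d, Cox6a1, Ndufa6 and Ndufc1. All 8 had a CTCF peak in the window and 6 of 8 were active. Of all active genes with shared Rad21, CTCF lay at 25 of 49 members and at 2930 of 5343 other genes. Its share among other genes with Rad21 folds as high was not tested. Atp5g2 (chr15:102493299-102501478, minus strand) was the highest active one, above 98.1% and 96.3% of active genes with shared Rad21 in replicates 1 and 2. Its 3 summits lay 138, 136 and 139 bp upstream of the TSS, and its CTCF fold of 58.6 was the highest of all members. The NRF1 match shown above lies between these summits and the start.

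Ndufa4l2 and Cox6a2 had the strongest Rad21 without H3K27ac. Ndufa4l2 (chr10:126951995-126954208, plus strand) had Rad21 folds of 58.3 and 63.5 with CTCF at 53.7, all about 1.9 kb upstream. Cox6a2 (chr7:135348950-135349880, minus strand) had 34.8 and 47.4 with CTCF at 7.91, and its summits, 2019, 2013 and 2022 bp upstream, lay just past the window, which the peaks reached with their flanks. With 500 or 1000 bp on either side of the TSS neither gene would count as bound. Among the 13099 other genes without promoter H3K27ac, 9.34% had shared Rad21 and 12.9% CTCF.

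**Figure D3:**
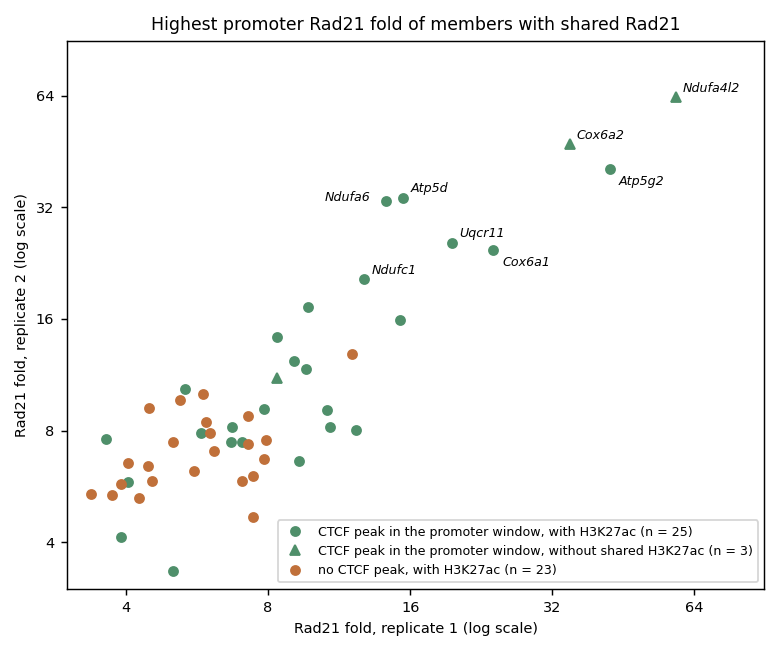
The highest promoter Rad21 fold in replicate 1 (horizontal, log scale) and replicate 2 (vertical, log scale) for the 51 members with shared Rad21 and a peak of each replicate in the window; green, with a promoter CTCF peak; orange, without; triangles, without shared H3K27ac. Ndufb9 is left out because its replicate 1 peak ends outside the window. The 8 labelled genes all have CTCF, while orange points stay at or below 12.1 in replicate 1 and 12.9 in replicate 2.

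Among the members with the highest CTCF fold were Atp5g2, Ndufa4l2, Ndufb7, Ndufab1, Ndufaf3, Ndufb10 and Cox6a1, with folds from 58.6 down to 15.7, and all 7 had shared Rad21. Of all active genes with CTCF, 25 of 28 members and 2930 of 3561 other genes had it. CTCF fold and Rad21 fold did not rank alike. Ndufb7, Ndufab1 and Ndufb10 had CTCF at 22.2, 22.1 and 17.1 within 40 bp of the TSS, but Rad21 at 10.7 and 9.11, at 5.78 and 7.86, and at 9.28 and 6.62. Ndufab1, the mitochondrial acyl carrier protein, was below the median Rad21 fold of active members with shared Rad21 in replicate 1, and Ndufb7 and Ndufb10 were above it. In replicate 2, where that median was 7.88, Ndufb7 was above it, Ndufb10 below it and Ndufab1 about at it. Over active members with CTCF, the median CTCF fold was 8.16, beside 6.84 for other active genes.

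Where Rad21 was present it was somewhat lower than elsewhere. The median fold over active members with shared Rad21 was 7.06 in replicate 1, beside 7.56 for other active genes, and 7.88 in replicate 2, beside 9.05. The log2 ratios were -0.10 and -0.20. At promoters with CTCF the medians were 9.28 beside 10.6 and 9.12 beside 12.6. At those without, they were 5.82 beside 6.04 and 6.86 beside 7.35. All 4 ratios were below 1, and single members ranged from 3.37 to 42.4 in replicate 1, far more widely than the medians differed. Median folds in replicates 1 and 2 were 7.105 and 7.535 for proteasome subunits and 7.246 and 8.445 for cytosolic ribosomal protein genes. They were 7.849 and 8.781 for mitochondrial ribosomal protein genes. A somewhat lower fold was thus not particular to members.

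No Rad21 peak of either replicate reached the promoter of 11 active members (13.6%, beside 12.8% of other active genes): Atp5c1, Atp5e, Atp5j2, Cox7a1, Cox7b, Ndufa1, Ndufa8, Ndufa9, Ndufb2, Ndufb8 and Sdhd. None of the 11 had CTCF. The share with CTCF among other active genes without a Rad21 peak was not determined, and 11 genes cannot show a difference from it. Among them Atp5j2, a membrane subunit of the ATP synthase, had H3K27ac folds of 11.5 and 5.39 over a region of 3320 bp, so a wide and high H3K27ac region could lack Rad21. Ndufb8 had the narrowest region of all active members, 524 bp, at folds of 2.05 and 1.76. A further 15 active members had a peak in replicate 2 alone and 3 in replicate 1 alone (Ndufa7, Uqcr10 and Cox6b1). With the 3 that had peaks of both replicates at different places, 21 of 81 active members had Rad21 peaks but no shared region. The same held for 2524 of 9018 other active genes, so it was not particular to members.

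The window decided a few of these calls. Ndufb9 was counted as bound through a region 1969 bp from its TSS, whose replicate 2 summit was 2114 bp away. Just outside the window were Cox7b, Ndufa7 and Cox7a1, with a shared Rad21 region at 2148, 2294 and 2411 bp. For all active members without shared promoter Rad21, the median distance to the nearest shared region was 10038 bp, beside 14717 bp for other active genes. Distances ran up to 213829 bp, at Cox6c. The 3 members on chromosome X, Ndufa1, Ndufb11 and Cox7b, were active, and none had shared promoter Rad21. Without chromosome X the share of active members with Rad21 was 62.8%, beside 59.9%. The share of other active genes was thus also higher without this chromosome than with it (59.2%). Their share on chromosome X alone was not determined, and 3 genes cannot show a difference from it.

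The promoter peaks of members lay close to the TSS. The Rad21 summit was at most 500 bp from it at 40 of 48 members in replicate 1 (83.3%, beside 71.0% of other active genes) and at 40 of 49 in replicate 2 (81.6%, beside 70.4%). Median distances were 109 bp beside 178 bp and 107 bp beside 185 bp. For CTCF, 20 of 28 (71.4%) lay that near, beside 58.9%, with a median of 224.5 bp beside 343 bp. Median Rad21 distances in replicates 1 and 2 were 77.5 and 69.5 bp for active cytosolic ribosomal protein genes. They were 92 and 75 bp for proteasome subunits and 117 and 148 bp for mitochondrial ribosomal protein genes, so closeness to the TSS was not particular to members. Members had a median of 1 annotated TSS and other active genes of 2, and the part of this in the distances was not tested.

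**Figure D4:**
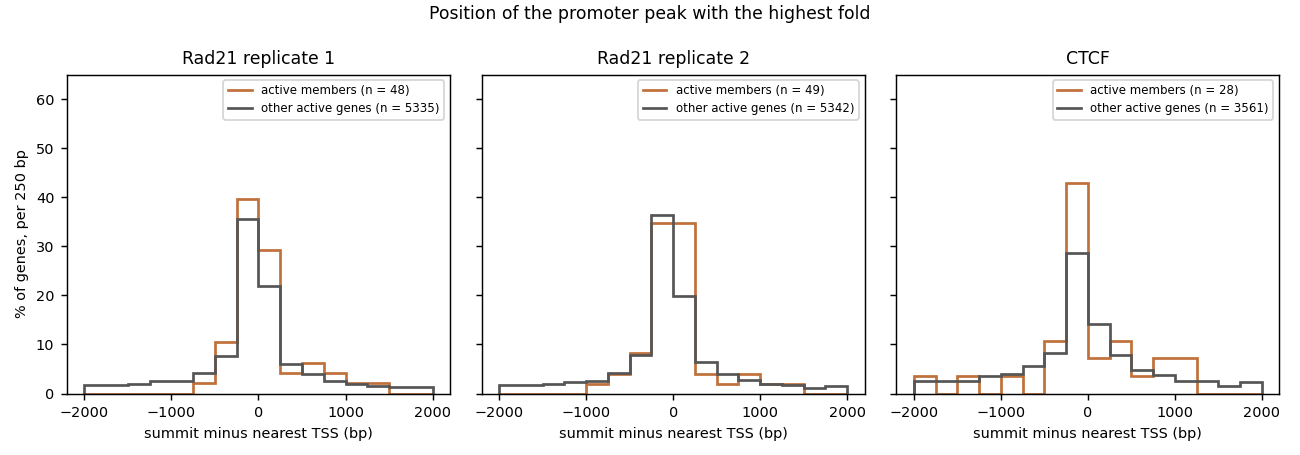
Distance from the nearest TSS to the summit of the promoter peak with the highest fold (horizontal, bp, negative upstream), as the percentage of genes per 250 bp, for active members (orange) and other active genes (grey) with shared Rad21 or with CTCF; summits past 2000 bp are not drawn. The orange curves have no gene in the outer bins of the Rad21 panels, where grey bins hold about 1 to 2% each.

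H3K27ac regions at members were narrower than at other active genes, with a median width of 1410 bp beside 1674 bp, a log2 ratio of -0.25. The middle of the distribution ran from 1046 to 1856 bp (quartiles), beside 1105 to 2703 bp. Atp5h, an ATP synthase stalk subunit, had the widest region, 9153 bp. The median width was 1118 bp for active mitochondrial ribosomal protein genes, 1305 bp for proteasome subunits and 1516 bp for cytosolic ribosomal protein genes. Narrower regions were thus not particular to members. Other active genes were cut into 4 equal classes by width. In the narrowest, up to 1105 bp, 15 of 25 members had shared Rad21 (60.0%), beside 45.0% of other active genes of that width. In the widest, from 2702.8 bp, it was 9 of 12 (75%), beside 79.1%. Across other active genes the Rad21 share rose with width, from 45.0% over 51.1% and 61.8% to 79.1%. The first 3 classes of members had 60.0%, 58.6% (17 of 29) and 53.3% (8 of 15). Classes of 12 to 29 members cannot show whether members depart from this rise. H3K27ac folds had medians of 2.37 beside 2.86 in replicate 1 and 3.26 beside 3.02 in replicate 2, so the replicates gave opposite signs.

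Many oxidative phosphorylation genes shared their promoter with another gene. A protein-coding gene started within 1000 bp in the opposite direction at 24 active members (29.6%), beside 19.6% of other active genes. The gap between the starts was 3 to 686 bp, with a median of 98 bp. Partners included Gabpa, which encodes a subunit of the activator GABP, at Atp5j, Timm8b, a mitochondrial import gene, at Sdhd, Cox4nb at Cox4i1, Eef1b2 at Ndufs1 and Rps28, a ribosomal protein gene, at Ndufa7. Marks at such a promoter cannot be assigned to either gene.

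Members with a head-to-head partner had less shared Rad21 than the others. Shared Rad21 lay at 9 of these 24 (37.5%) and at 40 of the other 57 active members (70.2%). Other active genes had 56.0% with a partner and 60.0% without. In replicate 1 alone the members' shares were 45.8% and 75.4%, and in replicate 2 alone 75% and 86.0%. Other active genes had 65.9% with a partner and 68.7% without in replicate 1, and 83.9% and 82.1% in replicate 2. The gap between members with and without a partner was thus wider in replicate 1 than in replicate 2. Of the 15 head-to-head members without shared Rad21, 9 did have a replicate 2 peak. Replicate 2 peaks were also the more frequent at other active genes with a partner. CTCF showed the same order, at 5 of 24 (20.8%) and 23 of 57 (40.4%), beside 33.8% and 40.9% of other active genes. With a -log10 q of at least 5 the Rad21 shares were 20.8% and 50.9%, beside 35.0% and 42.1%. The values by replicate and with the q limit were added after seeing the data, and the difference between these groups of 24 and 57 genes was not tested.

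**Figure D5:**
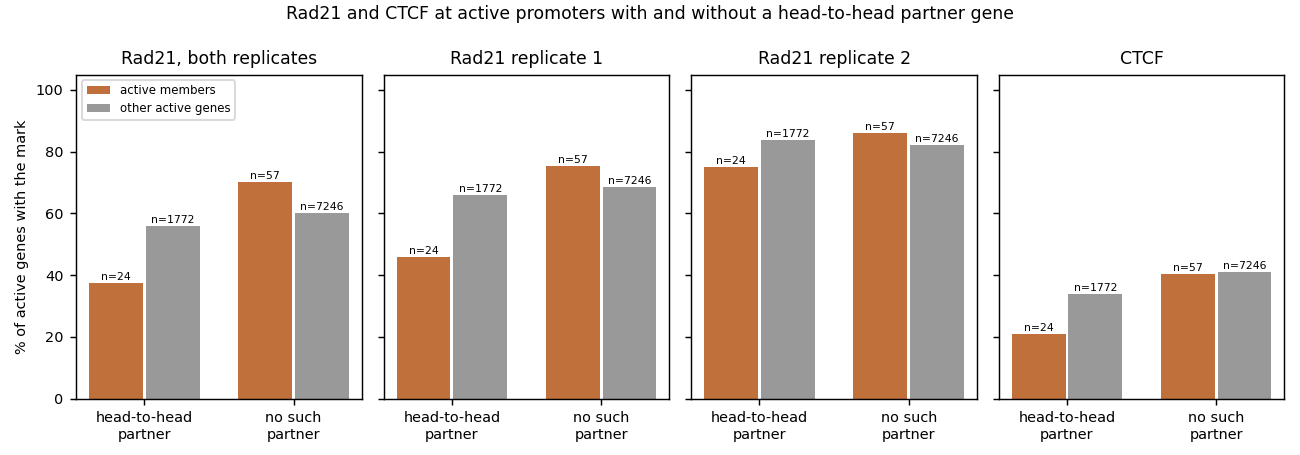
The percentage of active genes with promoter Rad21 (both replicates, replicate 1 and replicate 2) or CTCF, split by whether another protein-coding gene starts within 1000 bp in the opposite direction, for active members (orange) and other active genes (grey), with the number of genes above each bar. The orange bars are lower with a partner in every panel, from 37.5% against 70.2% for shared Rad21 to 75% against 86.0% in replicate 2.

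Among the promoter motifs, NRF1 and YY1 were more frequent at members and Sp1 less frequent. RefSeq promoters (GRCm38.p6, 250 bases before to 50 after the start) matched 74 of 91 members by symbol, and 75 of these promoters belonged to 69 active members. NRF1 matches (GCGCATGCG) were in 8 of the 75 (10.7%), beside 4.22% of promoters of other active genes and 2.35% of all promoters. YY1 matches (AANATGGCG) were in 12 (16%), beside 5.93% and 3.12%. The last letters of this motif also occur in some CTCF core matches. Matches on both strands were counted, and they describe letters, not bound sites.

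The genes with an NRF1 match were Atp5g2, Atp5k, Atp5l, Cox6a1, Ndufa11, Ndufa8, Uqcr11 and Uqcrc1 among active members, and Ndufaf4. Of these 8 active ones, 5 had CTCF and 6 shared Rad21, beside 18 and 38 of the 61 active members without the match. The 11 active members with a YY1 match had CTCF at 1 and shared Rad21 at 6. In other active genes with those matches CTCF lay at 37.7% (NRF1) and 33.7% (YY1), and shared Rad21 at 56.9% and 58.6%.

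GABP matches (CCGGAAGT) were in 5 of 75 promoters (6.67%), beside 9.67% of promoters of other active genes. All 5 of those genes had shared Rad21, beside 55.3% of other active genes with a match and 39 of 64 active members without it (60.9%). A group of 5 genes cannot show whether this share differs from the rest. Sp1 matches (GGGCGG) were in 31 (41.3%), beside 64.5%. ERR matches (TCAAGGTCA) were in 2 (2.67%), at Atp5g3 and Sdhd, beside 0.262%, and ZNF143 matches (ACTACAATT) in 3 (4.00%), at Atp5d and Uqcr10, beside 0.820%. TATA boxes (TATAAA) occurred in 6 (8.00%), beside 6.64%. The median GC content was 58.7% beside 61.0%, and the ratio of observed to expected CpG was 0.833 beside 0.791.

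Other parts of the mitochondrial machinery were also mostly active, while their shares with Rad21 lay on both sides of the 59.2% of other active genes. Of the mitochondrial ribosomal protein genes (Mrpl and Mrps), 74 of 77 were active, with shared Rad21 at 63.5%, CTCF at 32.4% and a head-to-head partner at 32.4%. Of 13 genes of the tricarboxylic acid cycle, which feeds electrons to the chain, 12 were active, 4 with shared Rad21 (33.3%) and 5 with CTCF (41.7%). Of 22 genes of mitochondrial protein import, 18 were active, 7 with shared Rad21 (38.9%) and 5 with CTCF (27.8%). Assembly factors outside the naming rule, such as Surf1 and Cox10, were active at 21 of 23 and had shared Rad21 at 16 (76.2%) and CTCF at 9 (42.9%). Cycs, the somatic cytochrome c that links complexes III and IV, was active at folds of 10.1 and 12.6 with no Rad21 peak, like Atpif1, the inhibitor of the ATP synthase.

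Of 13 genes for regulators of the group, 11 were active. Both shared Rad21 and CTCF lay at 8 of these 11 (72.7%, beside 32.5% of other active genes), among them Nrf1, Gabpb1, Tfam and Yy1. A group of 11 genes cannot show whether this share differs from the rest. Gabpa and Zfp143 were active with a Rad21 peak in replicate 2 alone. Ppargc1a, a coactivator of mitochondrial biogenesis, had an H3K27ac peak in replicate 1 alone, at a fold of 1.75. The housekeeping families outside mitochondria differed from the members most in CTCF, and that only for ribosomal proteins: cytosolic ribosomal protein genes had 79 of 83 active, Rad21 at 58.2% and CTCF at 50.6%, and proteasome subunits 35 of 39 active, 65.7% and 34.3%.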

How the data were processed

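Each library's peak list was used as deposited, on build mm9 per the submitters' processing notes, which list MACS2 2.1.0, Bowtie 1.0.0, CASAVA 1.82 and CASAVA 1.84 among other tools, without roles. Peak thresholds and controls were not given in the sources used here. The fold, a ratio over the local background, was computed by the authors. The -log10 p and -log10 q values are the authors', as is a score, which was not used; summit offsets are in bp as deposited. Entries with the same coordinates were counted once. Peaks of 2 replicates were merged, and regions with a peak of each, overlapping by at least 1 bp, were shared. Gene models were GENCODE vM1 on NCBIM37. Depth is unknown, and p-values were not computed: shares and medians stand beside those of other genes. Members, lists, named genes and 14 alternatives were chosen with earlier results of these data known. Named were core subunits, restricted isoforms with partners, inactive members, the 8 highest by Rad21 and by CTCF, and active members without Rad21. Functions were tested on simulated peaks. Python 3.11.15, numpy 2.4.6 and pandas 2.3.3 were used. Values of some single genes that the naming rule would take in are not reported here.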

Additional observations from a re-analysis of the deposited data

How the results depend on the processing

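No value is a test, so a change is read against the spread between replicates, and for CTCF, with 1 list, against the 95% exact binomial interval of its share (24.3 to 46.0%). That interval treats the members as independent draws from 1 library. It does not measure a spread between replicates, which is unknown for CTCF. Of 120 values under 14 alternative settings and 1 chosen after seeing the data (only genes with 1 TSS), 13 could not change, since the setting touches none of their lists. Of the other 107, 67 stayed within the replicate spread or, for CTCF, within that interval, 36 moved further and 4 changed sign. For CTCF, staying within the interval does not show that a value is stable. The member share with promoter H3K27ac was 92.3% with a peak of either replicate, 53.8% with equal numbers of top peaks, 83.9% without genes that have another gene's TSS within 2000 bp and 98.7% without assembly factors, related genes and restricted isoforms. Its excess over other genes, 48.2 percentage points, was 49.7 with only the 5' end of each gene, 47.0, 25.5 and 57.9 under the first, second and last of these, and 57.0 with 1 TSS. The Rad21 share was 42.0% with a -log10 q of at least 5 and 86.9% with a peak of either replicate. The Rad21 difference was 3.84, 3.19 and 3.37 points with 500 bp, 1000 bp or the 5' end, 3.08 with either replicate, -1.89 with 50% overlap, -1.58 with equal numbers, 2.94 on autosomes, 7.25 without nearby TSSs and 7.85 with 1 TSS. The CTCF share was 23.5% and its difference 0.469 points with a -log10 q of at least 5. That difference, -4.92 points, was -9.55 with equal numbers of top peaks, -1.05 and -2.56 with 500 and 1000 bp, -1.61 with the 5' end, -2.21 without nearby TSSs and -0.178 with 1 TSS; these count as within the interval, which is that of the share and wide. The Rad21 fold ratio (log2) was -0.10, -0.09 and -0.10 for the same 3 windows, -0.35 with the q limit, -0.08 with either replicate, -0.26 with equal numbers, -0.22 without nearby TSSs, -0.18 without assembly factors, related genes and isoforms, and -0.11 with 1 TSS. The width ratio was -0.29 without nearby TSSs and -0.15 with 1 TSS. The cause of these shifts was not tested. Leaving out each replicate in turn gave 89.0 to 92.3% for H3K27ac, 46.8 to 48.5 points for its excess, 59.5 to 82.7% for Rad21, -1.52 to 2.37 points for its difference, -0.16 to -0.06 for the fold ratio and -0.25 to -0.15 for the width ratio. No paired analysis was possible because no result comes from a test, CTCF has 1 list, and the labels do not tie replicates of different targets to one another.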
